A study of Mus musculus with 8 samples.

Results

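Of the 26709 gene rows measured in EMT6 mammary tumours, 895 were long noncoding RNAs (lncRNAs) that lie antisense to protein-coding genes. They were the lncRNA rows with at least 80 estimated counts over the 8 libraries whose span overlaps protein-coding rows of the opposite strand and no other row. The Snhg genes, Gas5, Malat1, Neat1 and Rmrp were left out. The table held 4203 lncRNA rows, of which 2068 reached 80 counts, and the choice used position and total counts but not the difference between treatments. The members lie opposite 871 distinct coding genes, called partners here. Each member was paired with the partner it overlaps over the most bases. The lowest member had 80 counts, and the highest lncRNA of the same layout left out had 79.04.

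EMT6, a mammary carcinoma line of Balb/c origin labelled WT, was grown as tumours in syngeneic Balb/c mice. Of the 8 tumours, 4 came from mice given IgG and 4 from mice given GrB, which the series names GrB-Fc-KS49, a fusion of granzyme B, an antibody Fc part and a binder of the cell surface protein EMP2. Treatment was given 3 times over 10 days. The age of the mice is not given here, and neither is whether every tumour had its own host, so p-values reflect the spread from tumour to tumour, which may be partly technical. The title of 1 library per group, IgG 1 and GrB 3, ends in U, whose meaning is not given.

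An antisense lncRNA is transcribed from the strand opposite to a coding gene. Some start near the partner's own promoter and run away from it, some run in from the partner's 3′ side, and some lie wholly inside an intron or exon of the partner. A few, such as Kcnq1ot1, silence neighbouring genes on the same chromosome, while many are short-lived nuclear transcripts that the RNA exosome degrades.

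The promoters of members whose values are described below show how different these transcripts are at their starts. Each line gives 300 bases from RefSeq on GRCm38.p6 in the direction of transcription, 250 before the annotated start and 50 after it. In capitals are matches on either strand to GGGCGG (the GC box), CCAAT or TATAAA, with overlapping matches run together. Zfas1 and its partner Znfx1 are shown because they start beside each other on opposite strands, Kcnq1ot1 because it is imprinted, and Rab26os because it starts inside the gene opposite. The windows are Zfas1 at chr2:167062684-167062983 on the plus strand, Znfx1 at chr2:167062966-167063265 on the minus strand, Kcnq1ot1 at chr7:143296498-143296797 on the minus strand and Rab26os at chr17:24528001-24528300 on the plus strand.
Zfas1: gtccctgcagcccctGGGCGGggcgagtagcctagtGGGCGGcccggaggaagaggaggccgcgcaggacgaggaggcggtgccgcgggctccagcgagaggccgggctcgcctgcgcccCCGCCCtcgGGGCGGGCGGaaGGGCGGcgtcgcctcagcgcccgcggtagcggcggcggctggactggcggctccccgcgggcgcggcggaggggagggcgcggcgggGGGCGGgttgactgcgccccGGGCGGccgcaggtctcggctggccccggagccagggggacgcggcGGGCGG
Znfx1: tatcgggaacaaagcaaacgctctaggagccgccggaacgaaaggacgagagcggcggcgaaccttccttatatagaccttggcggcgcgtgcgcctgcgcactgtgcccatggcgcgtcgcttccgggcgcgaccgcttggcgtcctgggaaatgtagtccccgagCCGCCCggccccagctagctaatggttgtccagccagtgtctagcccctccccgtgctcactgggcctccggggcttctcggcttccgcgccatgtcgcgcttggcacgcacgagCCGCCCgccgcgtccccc
Kcnq1ot1: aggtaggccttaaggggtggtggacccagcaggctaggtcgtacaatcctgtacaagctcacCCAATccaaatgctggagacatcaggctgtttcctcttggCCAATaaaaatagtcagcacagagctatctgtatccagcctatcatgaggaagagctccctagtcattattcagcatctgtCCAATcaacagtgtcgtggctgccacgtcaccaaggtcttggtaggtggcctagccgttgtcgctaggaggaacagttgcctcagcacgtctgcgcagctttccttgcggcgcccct
Rab26os: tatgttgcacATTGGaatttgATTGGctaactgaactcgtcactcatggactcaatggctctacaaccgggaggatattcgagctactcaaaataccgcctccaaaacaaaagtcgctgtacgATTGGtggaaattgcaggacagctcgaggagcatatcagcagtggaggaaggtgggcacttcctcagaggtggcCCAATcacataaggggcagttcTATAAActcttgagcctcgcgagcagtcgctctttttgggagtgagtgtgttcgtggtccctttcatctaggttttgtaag
The Zfas1 window was 83% G or C with 9 GC box matches, and it shared 18 bases with that of Znfx1, which had 2. The Kcnq1ot1 window, 53.3% G or C, held 3 CCAAT matches. Rab26os, at 48.3%, held 4 CCAAT matches and 1 TATAAA. A match describes the letters and is no evidence of binding.

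RefSeq gave a window for 331 of the 895 members, matched by symbol. Their median G or C content was 57.0%, against 52.7% over 27025 promoters of 1 window a gene, and their median ratio of observed to expected CpG was 0.57 against 0.39. Members lying head-to-head with the partner had the GC box in 49.5% of 109 windows and those lying tail-to-tail in 52.5% of 101. Members within the partner had it in 28.8% of 111, and all promoters in 35.9%. TATAAA was in 5.5% of head-to-head windows, 7.92% of tail-to-tail windows and 13.5% of those within the partner, against 14.2% of all. Over all members with a window the shares were 35.6% for CCAAT, 9.37% for CACGTG, 2.72% for TGACTCA and 5.14% for the spaced palindrome bound by STAT factors. The same motifs were in 37.9%, 7.24%, 5.17% and 3.93% of all promoters. Of 96 head-to-head pairs with both windows, 31 had windows that share bases.

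The members form 4 layouts. The lncRNA lay within the span of its partner in 356 pairs, met it head-to-head with overlapping 5′ ends in 304, met it tail-to-tail in 210 and enclosed it in 25. Among head-to-head pairs the 5′ ends were at most 500 bases apart in 115. A member spanned a median of 4361 bases (332 to 258600) and overlapped its partner by a median of 2060. Most members are little studied, with 478 carrying a Gm number, 216 a Rik name and 117 no name, while 67 have a name built on another gene with os or as. Exon and intron positions are not annotated here. Several partners overlapped 125 members, and 22 partners were shared by several members.

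Members were sparsely counted and their partners were not. Values are given as CPM, the counts of a gene relative to the library total, scaled between libraries and not corrected for transcript length. The median member had a mean of 0.482 CPM (0.126 to 75), and 279 reached 1 CPM. The median partner had 40.4 CPM. A member had a median of 1.56% of the counts of its partner, under 1% in 351 pairs, and as many counts as the partner or more in 63. These are shares of counts and do not compare the number of molecules.

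Library totals were 74 to 82.6 M counts in IgG tumours and 74.6 to 80.9 M in GrB-Fc-KS49 tumours. The labelled epithelial tumour cell type was checked against its markers. Krt8, an epithelial keratin, was at 444 ± 23.3 CPM in IgG tumours (SD, n = 4), while Epcam and Cdh1 were at 4.10 ± 0.612 and 7.59 ± 2.37 CPM. The keratins Krt18, Krt19 and Krt7 had IgG means of 54.3, 8.78 and 5.11 CPM. The 5 mesenchymal markers summed to 8595 to 9120 CPM in IgG tumours, mostly from Vim and Fn1 with means of 4965 and 3811 CPM. Twist1, Zeb1 and Cdh2 had 63.2, 43.2 and 0.982 CPM. Summed markers of other cells spread widely over the GrB-Fc-KS49 tumours, from 5.50 to 60.9 CPM for 9 T cell genes (2.21 to 7.63 in IgG tumours), 220 to 5433 for 5 MHC class II genes (90.2 to 619), 38.6 to 2348 for 8 skeletal muscle genes (40.4 to 187), 0.373 to 1619 for 6 skin genes (0.360 to 0.461), 62.6 to 377 for 6 adipocyte genes (46.3 to 75.6), 836 to 1726 for 6 macrophage genes (741 to 905) and 1.19 to 5.06 for 5 B cell genes (0.629 to 0.955). The top value was in GrB 1 for T cell, B cell, MHC class II, macrophage and muscle genes, in GrB 2 for skin and in GrB 3 for adipocyte genes. Macrophage genes differed among themselves, with a log2 fold change (GrB-Fc-KS49 minus IgG) of 1.19 for C1qa and 1.17 for C1qb. It was 0.31 for Adgre1, 0.22 for Cd68, 0.04 for Csf1r and -0.39 for Mrc1. Of these lists only the skin genes had members without a count, 3 of 6 being at 0 in at least 1 tumour. Their part in the results below was not tested, and in bulk tumours fewer cells of a type and less RNA per cell cannot be told apart.

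The antisense lncRNAs were shifted upward in GrB-Fc-KS49 tumours while their coding partners were shifted slightly downward. The median log2 fold change (GrB-Fc-KS49 minus IgG) was 0.22 over the 871 members tested, with quartiles of -0.08 and 0.56, and 608 were positive and 263 negative. Without the low-count filter the median over all 895 was 0.21. The 841 partners tested had a median of -0.07 and all 19718 genes tested had a median of 0.03. With upper quartile scaling these were -0.01 and 0.09, and the members had 0.28. For the 787 tested coding genes that lie nearest to a member without overlapping it, the median was -0.03. The 669 tested lncRNAs that overlap no other row had the same median as the members, 0.22.

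**Figure D1:**
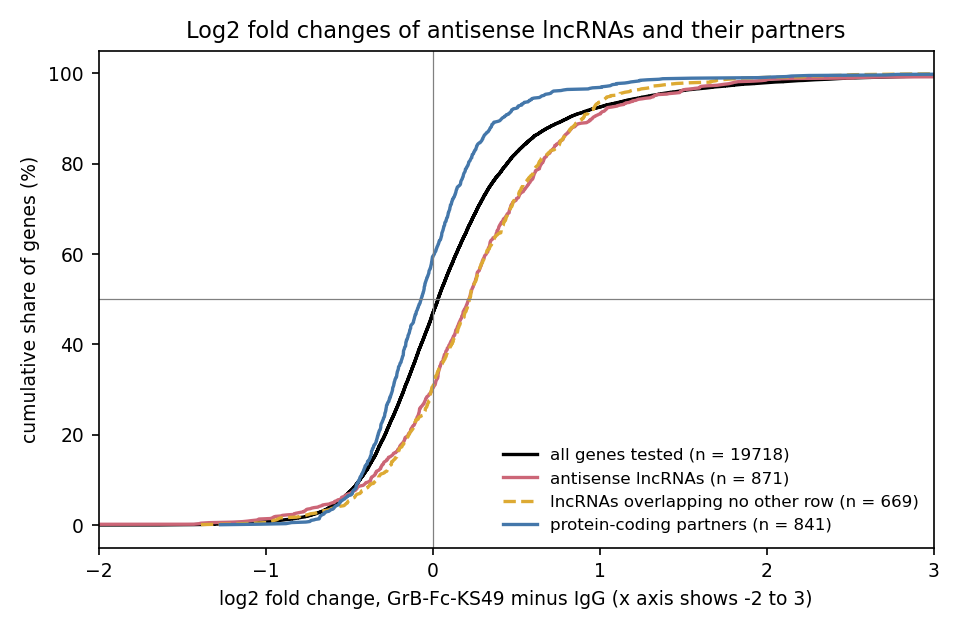
The cumulative share of genes in percent (y axis) is drawn against the log2 fold change between GrB-Fc-KS49 and IgG tumours (x axis, -2 to 3) for 19718 genes tested, 871 antisense lncRNAs, 841 coding partners and 669 lncRNAs that overlap no other row. The curves of both lncRNA groups cross 50% at 0.22, all genes at 0.03 and partners at -0.07.

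No single member passed when the whole table was tested. With edgeR's quasi-likelihood F test 0 of 871 members and 0 of 19718 genes (0.0%) fell below 0.05 after Benjamini-Hochberg adjustment, where the lowest adjusted value was 0.0619. Unadjusted, 169 members were higher (19.4%) and 38 lower (4.36%) at p under 0.05, against 17.3% higher and 17.8% lower over all genes. The share of higher members was thus near the background, and the share of lower members was below it. DESeq2 called 95 members higher (10.9%, against 11.4% of all genes) and 15 lower (1.72%, against 12.5%). Limma-voom called 1 gene of all (0.00507%), the member Gm15655. That member reached the count limit of the set through the IgG tumours alone, so it could only enter the set as lower. Without GrB 1 edgeR called 18 members higher (2.07%, against 2.23%) and 4 lower (0.459%, against 4.09%), and without GrB 4 it called 60 higher (6.84%, against 7.12%) and 16 lower (1.82%, against 10.0%).

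Lower genes were also scarce among lncRNAs that overlap no other row, of which 4.48% were lower and 16.0% higher, and among coding genes with few counts. Of protein-coding genes with 80 to under 400 counts, 2.14% were lower and 19.9% higher at an unadjusted p under 0.05, with a median log2 fold change of 0.42. Above that level 22.3% of protein-coding genes were lower and 16.3% higher. Members of 80 to under 400 counts were lower in 4.25% and higher in 15.2%. Those with at least 400 counts were lower in 4.51% and higher in 24.9%, with a median of 0.21. Processed pseudogenes of 80 to under 400 counts were higher in 6.61% and lower in 9.15%, with a median of 0.00. Partners were higher in 11.2% and lower in 25.7%. The nearest coding genes that do not overlap a member were higher in 16.5% and lower in 23.0%.

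The median member was higher in every layout. Members within the partner had a median log2 fold change of 0.24, with 79 of 340 higher (23.2%) and 23 lower (6.76%) at an unadjusted p under 0.05, against 17.3% and 17.8% of all genes. For head-to-head members the median was 0.21 with 48 of 300 higher (16.0%) and 5 lower (1.67%), namely Gm15983, Gm26873, Gm29585, Gm36026 and Gm47766. Tail-to-tail members had 0.19, with 39 of 206 higher (18.9%) and 8 lower (3.88%), and the 25 that enclose their partner had 0.17, with 3 higher (12%) and 2 lower (8%). Members with os or as names had a median of 0.29, with 17 of 62 higher (27.4%) and 2 lower (3.23%). No difference between layouts was tested.

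The treated tumours did not contribute equally. In 109 members (12.2%) the lowest GrB-Fc-KS49 value lay above the highest IgG value, and in 35 (3.91%) all treated values lay below all IgG values. Such genes are called apart here. Over all 20078 genes with at least 80 counts the shares were 10.4% and 15.0%, and over the 19718 tested 10.3% and 15.3%. GrB 1 held the highest value in 92 of the 109 members, GrB 3 in 10, GrB 2 in 5 and GrB 4 in 2. The like count over all genes apart and higher is not given here, so this split may not be particular to the members. The median member deviated from its IgG mean by 0.30, 0.09, 0.24 and 0.07 on the log2 scale in GrB 1 to 4, and by -0.02, -0.07, -0.02 and 0.14 in IgG 1 to 4. IgG 4 thus lay above GrB 2 and GrB 4. Partners deviated by -0.15, -0.10, -0.07 and -0.04 in GrB 1 to 4 and by -0.02 to 0.02 in IgG tumours. Without GrB 1 the median log2 fold change of members was 0.17 against 0.02 for all genes, and 105 members were higher (12.1%, against 12.3% of all genes) and 32 lower (3.67%, against 15.7%) at an unadjusted p under 0.05.

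The nuclear RNA Malat1 and histone messages, which normally lack a poly(A) tail, were also higher in treated tumours. Malat1, an abundant nuclear lncRNA, was at 647, 714, 683 and 962 CPM in IgG 1 to 4 and at 2954, 1269, 1400 and 1512 CPM in GrB 1 to 4. It was highest in GrB 1 and in IgG 4, and the groups did not overlap. Neat1, a lncRNA of nuclear paraspeckles, was at 192 to 307 CPM in IgG tumours and 307 to 444 CPM in treated ones, so the groups touched. Rpph1, the RNA of ribonuclease P, was at 0.112 to 0.314 CPM in IgG tumours and 0.240 to 0.626 CPM in treated ones, and these overlapped. The summed CPM of 59 histone rows of the replication-dependent kind, whose messages end in a stem-loop, was 115 to 137 in IgG tumours and 159 to 215 in GrB-Fc-KS49 tumours. All 895 members summed to 1321 to 1458 CPM in IgG tumours and 1499 to 2024 CPM in GrB-Fc-KS49 tumours, and all lncRNA rows to 6949 to 8066 and 8479 to 11923 CPM. The part of poly(A) selection, nuclear RNA content or RNA quality in the shift of the members was not tested.

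**Figure D2:**
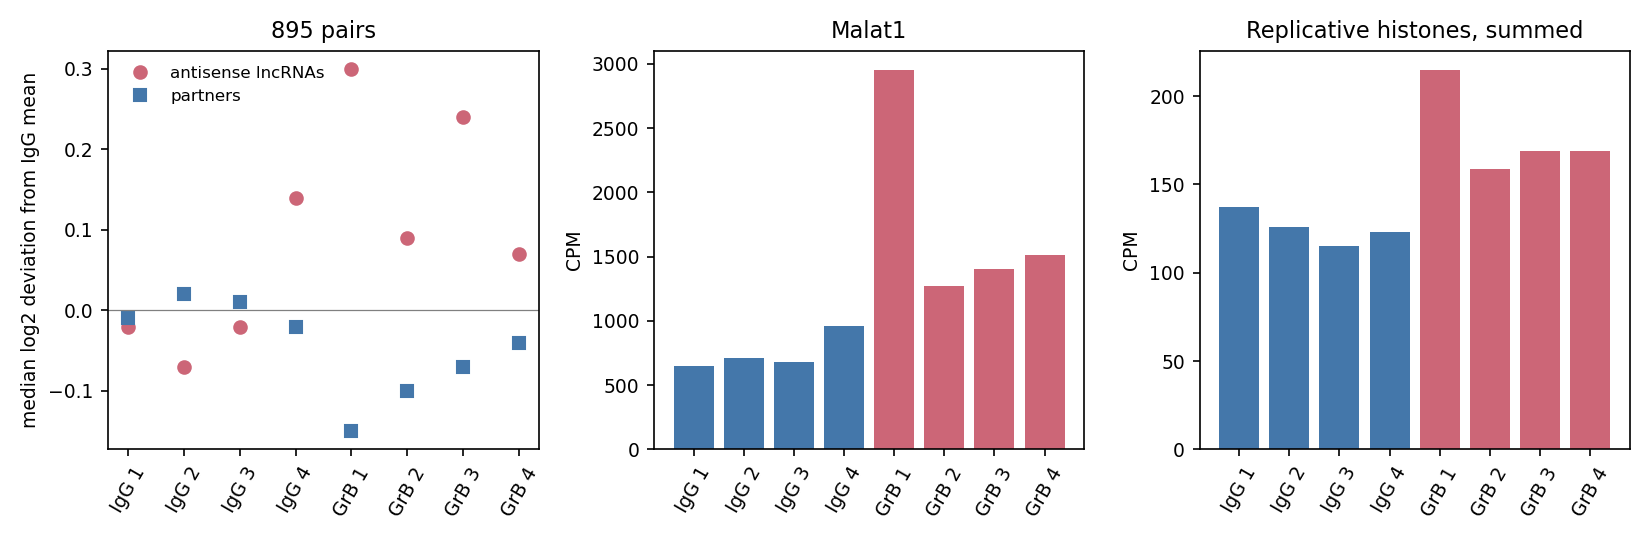
The left panel plots for each library the median log2 deviation from the IgG mean over 895 members and their partners, and the other panels plot the CPM of Malat1 and of the summed replication-dependent histone rows as bars from 0. Members lie highest in GrB 1 at 0.30 and GrB 3 at 0.24, and IgG 4 at 0.14 lies above the other IgG libraries; Malat1 is highest in GrB 1 at 2954 CPM.

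Among the 8 members with the highest mean CPM, Zfas1 and Kcnq1ot1 had the largest differences. Zfas1 (ENSMUSG00000074578, chr2:166904854-166907783 on GRCm39, plus strand) is a host of small nucleolar RNAs and overlaps the first 82 bases of Znfx1, which encodes an interferon-induced RNA helicase. Zfas1 was at 49.0, 56.7, 58.8 and 68.0 CPM in IgG 1 to 4 and at 124, 92.0, 76.4 and 75.4 CPM in GrB 1 to 4. All treated values lay above all IgG values, and GrB 1 was the highest. The means were 58.1 ± 7.8 and 91.9 ± 22.6 CPM (SD, n = 4 each), a log2 fold change of 0.66 with a standard error (SE) of 0.17 (edgeR, adjusted p = 0.0619) and 0.48 without GrB 1. Znfx1 was at 54.1 to 88.1 CPM in IgG tumours and 43.6 to 112 CPM in treated ones, which overlap, with a log2 fold change of 0.18 (SE 0.28) that turned to -0.02 without GrB 1.

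Kcnq1ot1 (ENSMUSG00000101609, chr7:142757195-142850286, minus strand) is the imprinted antisense transcript within Kcnq1, which encodes a potassium channel subunit. Its values were 30.8, 28.9, 38.5 and 56.7 CPM in IgG 1 to 4 and 97.8, 51.5, 68.8 and 59.0 CPM in GrB 1 to 4. IgG 4 lay above GrB 2, so the groups overlap. The log2 fold change was 0.84 (SE 0.26; edgeR quasi-likelihood, Benjamini-Hochberg adjusted p = 0.0731), and 0.63 without GrB 1. Kcnq1 was at 5.01, 3.90, 3.05 and 3.71 CPM in IgG 1 to 4 and at 1.95, 3.21, 4.32 and 3.36 CPM in GrB 1 to 4, which overlap. It was lowest in GrB 1, the library with the highest Kcnq1ot1. Kcnq1ot1 had 1518% of the counts of Kcnq1.

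The other 6 abundant members differed little. Brip1os (ENSMUSG00000085208), named for the opposite strand of Brip1 and enclosing Ints2, a subunit of the Integrator complex, was at 71.6, 67.6, 69.7 and 67.5 CPM in IgG 1 to 4 and at 65.4, 65.3, 65.3 and 62.9 CPM in GrB 1 to 4. The groups did not overlap, yet the log2 fold change was only -0.09 (SE 0.06). 2410006H16Rik, tail-to-tail with Lrrc75a, was at 53.3 ± 4.84 CPM in IgG tumours and 67.6 ± 7 CPM in treated ones (SD, n = 4 each), a log2 fold change of 0.34 (SE 0.10). The unnamed ENSMUSG00000121068, head-to-head with the glutathione peroxidase gene Gpx1, had a log2 fold change of 0.12. 4933412E12Rik opposite Rab3ip, a Rab exchange factor, had 0.27, and B230354K17Rik opposite Spats1 had -0.18. Hmga2-ps1 within Sdccag8 had 0.07, and its counts are uncertain, since its name marks a copy of Hmga2 and how the counting divided any shared reads is not given. In edgeR the adjusted p of these 6 members ranged from 0.0651 to 0.628.

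**Figure D3:**
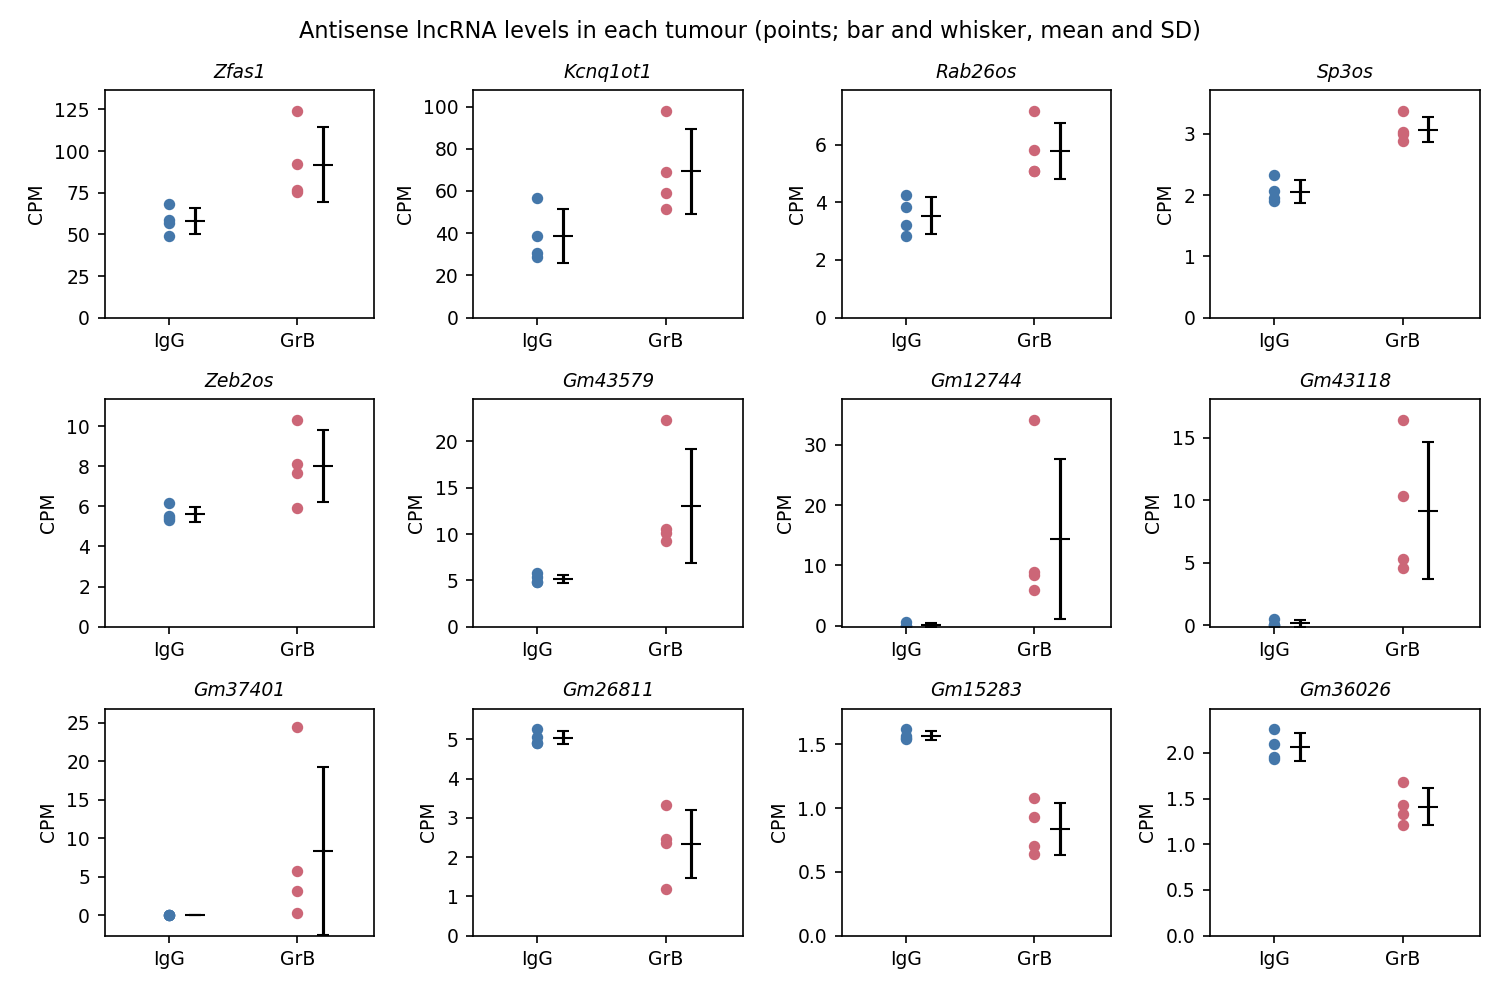
CPM of 12 antisense lncRNAs (y axes, scales differ) in each of the 4 IgG and 4 GrB-Fc-KS49 tumours, with points for tumours and a bar with whiskers for the mean and SD. Zfas1, Rab26os, Sp3os, Gm43579, Gm12744, Gm43118 and Gm37401 were higher in all treated tumours than in any IgG tumour, Gm26811, Gm15283 and Gm36026 were lower, and Kcnq1ot1 and Zeb2os overlapped between groups.

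Of the 67 members with os or as names, 10 were apart and higher (14.9%, against 10.4% of all genes), Sp3os and Rab26os among them. Sp3os starts head-to-head with Sp3, a transcription factor that binds GC boxes, and was at 1.90, 2.32, 1.95 and 2.06 CPM in IgG 1 to 4 and at 3.37, 3, 3.03 and 2.88 CPM in GrB 1 to 4 (log2 fold change 0.58, SE 0.14). Sp3 itself went the other way, from 75.9 to 90.0 CPM in IgG tumours to 37.0 to 59.7 CPM in treated ones (-0.68, SE 0.15). Rab26os, within the small GTPase gene Rab26, was at 3.22, 2.82, 3.85 and 4.27 CPM in IgG 1 to 4 and at 7.16, 5.07, 5.81 and 5.07 CPM in GrB 1 to 4 (0.71, SE 0.18). Rab26 had only 0.171 to 0.311 CPM over all tumours. For the 3 genes Sp3os, Sp3 and Rab26os the edgeR adjusted p was 0.0619.

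Other named members of that kind, or from a list of known antisense RNAs, were Zeb2os, Rab10os, Dnm3os and Dlx1as. Zeb2os, opposite the gene of ZEB2, a repressor of epithelial genes, was at 5.44, 6.17, 5.34 and 5.51 CPM in IgG 1 to 4 and at 10.3, 7.68, 8.09 and 5.94 CPM in GrB 1 to 4. GrB 4 lay below IgG 2, and the log2 fold change was 0.51 (SE 0.17). Zeb2 was lower in all treated tumours, at 73.6 to 91.7 CPM against 100 to 106 CPM (-0.31, SE 0.08). Rab10os was at 11.5 to 14.6 CPM in both groups, while its partner Rab10, which encodes a trafficking GTPase, was at 220 to 238 CPM in IgG tumours and 142 to 196 CPM in treated ones (-0.39, SE 0.10). Dnm3os, host of the microRNAs miR-199a and miR-214 within Dnm3, ranged from 7.78 to 17.0 CPM in IgG tumours and 7.95 to 18.2 CPM in treated ones (0.03, SE 0.31). Dlx1as, overlapping Metap1d and known as the antisense of the homeobox gene Dlx1, had -0.31 (SE 0.28). Of 44 known antisense or intergenic lncRNAs listed, 4 were members: Kcnq1ot1, Dnm3os, Zeb2os and Dlx1as.

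Some members were near 0 in IgG tumours and present in every treated tumour. Gm12744 was at 0, 0.0132, 0 and 0.558 CPM in IgG 1 to 4 and at 34.1, 6.01, 8.98 and 8.43 CPM in GrB 1 to 4. Gm43118 (ENSMUSG00000104559, chr5:111535381-111536155), within the phosphatidylinositol transfer protein gene Pitpnb, was at 0.0484, 0.0132, 0 and 0.521 CPM in IgG 1 to 4 and at 16.4, 4.61, 10.3 and 5.26 CPM in GrB 1 to 4. In both, IgG 4 was the highest of the IgG tumours and GrB 1 the highest of the treated ones. Gm37401 (ENSMUSG00000104208, chr9:108214288-108215472), tail-to-tail with the GTPase gene Rhoa, was at 0.0363, 0, 0 and 0.0372 CPM in IgG 1 to 4 and at 24.4, 0.240, 3.07 and 5.77 CPM in GrB 1 to 4. Their log2 fold changes were 6.61, 5.93 and 8.66 (SE 1.32, 1.12 and 1.62), and without GrB 1 they were 5.73, 5.49 and 7.19. Gm43118 starts near the 3′ end of Pitpnb and had 5.02% of its counts, and Gm37401 had 0.912% of those of Rhoa. Whether counting used strand is not given, so reads from an overlap cannot be told apart from those of the partner.

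Rhoa differed little, with a log2 fold change of 0.05, and Pitpnb was lower in every treated tumour (-0.41, SE 0.11). Of the tested members 7 had a fitted log2 fold change above 3, which 0.593% of all genes had, and 1 had one below -3, which 0.0203% had. Besides Gm12744, Gm43118 and Gm37401, 9 members, all of them within their partner, had no rounded count in any IgG tumour. These 9 reached 80 counts through the treated tumours alone, so they could only enter the set as higher. Gm20659, within the phosphatase gene Dusp3, is the one of these with the highest treated mean and was at 5.36, 0.266, 2.45 and 0.870 CPM in GrB 1 to 4, at least 232-fold higher against a floor of 3 counts over the IgG group. Gm17139 in Arel1, Gm45732 in Urb2 and Gm37335 in Hs6st1 were at least 216-fold, 163-fold and 156-fold higher. In all 4 of these GrB 1 had the highest value. Gm20659, Gm17139 and Gm37335 each start at the last base of the partner's row and had 2.27%, 1.95% and 1.83% of its counts. The limit on strand given above applies to all 4. Gm17139, at 6.17 CPM in GrB 1 and 0.0666 CPM in GrB 2, was left out of the edgeR fit by the low-count filter. Over all 20078 genes with at least 80 counts, 56 had no count in any IgG tumour, 42 of them protein-coding.

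Gm15655 (ENSMUSG00000086717, chr8:116431817-116433972) was the opposite case and the only one of those 20078 genes with no rounded count in any treated tumour. It reached the count limit of the set through the IgG tumours alone, so it could only enter the set as lower. It lies within the row of Maf, a transcription factor gene, and was at 0.326, 0.290, 0.317 and 0.149 CPM in IgG 1 to 4, so it was at least 28.8-fold lower in treated tumours against the same floor of 3 counts. Maf was at 49.5 to 66.5 CPM in IgG tumours and 46.4 to 97.4 CPM in treated ones, which overlap.

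Other members at a mean of at least 1 CPM that were higher in every treated tumour included Gm43579, Gm42893, Gm9856 and ENSMUSG00000120814. Gm43579 (ENSMUSG00000107191), within the RNA helicase gene Ddx54, was at 5.31, 4.77, 4.79 and 5.75 CPM in IgG 1 to 4 and at 22.3, 9.23, 10.1 and 10.5 CPM in GrB 1 to 4 (log2 fold change 1.34, SE 0.28, and 0.95 without GrB 1). Ddx54 had -0.09 (SE 0.06). Gm9856, head-to-head with Tmem42, a gene of a transmembrane protein, was at 1.56 ± 0.212 CPM in IgG tumours and 3.05 ± 0.669 CPM in treated ones (SD, n = 4 each). ENSMUSG00000120814 within Taf6l, a gene of a histone acetyltransferase complex subunit, was at 0.680 ± 0.0904 and 1.35 ± 0.290 CPM. The edgeR adjusted p was 0.0619 for each of the 4.

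Of the 35 members apart and lower, 13 (37.1%) had a partner that was apart and lower too, against 21.6% of all 871 partners. That difference was not tested. Gm26811 (ENSMUSG00000097816, chr6:89281612-89304603), tail-to-tail with the semaphorin receptor gene Plxna1, was at 4.92, 5.06, 5.26 and 4.92 CPM in IgG 1 to 4 and at 1.20, 2.45, 2.37 and 3.33 CPM in GrB 1 to 4 (log2 fold change -1.11, SE 0.27). Plxna1 was lower in every treated tumour as well (-0.46, SE 0.14). Gm15283 (ENSMUSG00000087700), which encloses Hif1a, the gene of the hypoxia-inducible factor, was at 1.55, 1.54, 1.57 and 1.62 CPM in IgG 1 to 4 and at 0.701, 1.08, 0.642 and 0.933 CPM in GrB 1 to 4 (-0.91, SE 0.20). Hif1a itself was at 255 to 286 CPM in IgG tumours and 112 to 205 CPM in treated ones (-0.76, SE 0.17). Gm15283 and Hif1a thus had similar fold changes, and the ratio between them overlapped between the groups.

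A different relation held for Gm36026 (ENSMUSG00000116010, chr15:101912647-101917877), which starts head-to-head with Krt8. It was at 2.26, 1.95, 2.10 and 1.93 CPM in IgG 1 to 4 and at 1.21, 1.68, 1.43 and 1.33 CPM in GrB 1 to 4 (log2 fold change -0.54, SE 0.16), with all treated values below all IgG values. Krt8 had a log2 fold change of 0.25 (SE 0.14) and overlapping groups. Of the other members that the naming rule took as lower, Gm10644 opposite the adhesion receptor gene Adgrl1 had -1.05 (SE 0.35), Gm11946 within the smooth muscle gene Smtn -0.55 (SE 0.21) and Gm26873 opposite Lix1 -0.45 (SE 0.18), all with groups apart. Gm17638 within the translation factor gene Eif3d had -0.34 (SE 0.12) with GrB 4 above 1 IgG value, IgG 4. In edgeR the adjusted p of these 7 lower members was 0.0619 to 0.118.

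Members and partners as a whole showed at most a weak relation in their fold changes. In 845 pairs with both tested, the signs were the same in 442 (52.3%). Most members were higher and most partners lower, so the share expected of unrelated signs lies below an even split. With the nearest coding gene that does not overlap in place of the partner, they were the same in 388 of 783 (49.6%). Across pairs, which share the same 8 libraries and are not independent, Pearson's r was 0.07 and Spearman's rho 0.15, against 0.02 and 0.06 with the neighbour. Head-to-head pairs had r of 0.29, rho of 0.21 and the same sign in 56.0% of 293, against 45.9% of 266 with the neighbour, while those with 5′ ends at most 500 bases apart had r of 0.38, rho of 0.11 and the same sign in 49.1% of 112. Where the lncRNA lay within the partner, 47.5% of 335 had the same sign. The member was higher and the partner lower in 324 pairs, both were higher in 262, both lower in 180 and the member lower with the partner higher in 79.

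**Figure D4:**
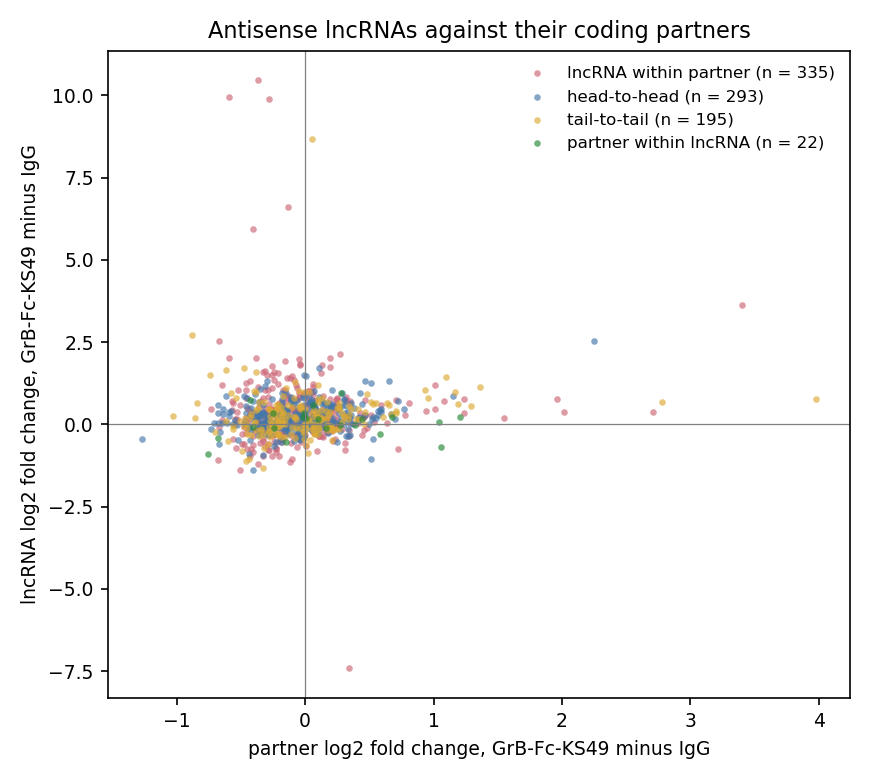
Each point is 1 of 845 pairs, with the log2 fold change of the coding partner on the x axis and that of the antisense lncRNA on the y axis, coloured by layout. The cloud centres above 0 for members and just below 0 for partners with no visible slope (Pearson's r 0.07), and the members highest on the y axis are those near 0 in IgG tumours.

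Taking the ratio of member to partner within each tumour removes the scaling between libraries. The log2 ratio of counts, with 0.5 added to each, was higher in the treated mean in 603 pairs and lower in 292, with a median difference of 0.24. The groups were apart and higher in 130 pairs (14.5%) and apart and lower in 34 (3.8%). With the nearest coding gene that does not overlap as the denominator the shares were 12.3% and 4.58%. Of the 34 lower pairs, 4 were head-to-head: A430057M04Rik opposite Comtd1, Gm15983 opposite Eef2kmt, Gm26902 opposite Ch25h and Gm36026 opposite Krt8.

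In 23 pairs the member was apart and higher and the partner apart and lower, which is 21.1% of the members apart and higher. Of all 871 partners 21.6% were apart and lower, a near equal share. Gm42893 (ENSMUSG00000106415, chr3:116422822-116424633), within the centriole assembly gene Sass6, was at 0.254, 0.738, 0.497 and 1.13 CPM in IgG 1 to 4 and at 5.76, 2.08, 4.21 and 2.98 CPM in GrB 1 to 4 (log2 fold change 2.52, SE 0.48). Sass6 was at 26.1, 24.7, 23.7 and 23.4 CPM in IgG 1 to 4 and at 10.9, 16.1, 16.0 and 18.6 CPM in GrB 1 to 4 (-0.67, SE 0.15). GrB 1 had both the highest Gm42893 and the lowest Sass6. Further pairs of this kind, chosen after their values were seen, were Hectd2os with the ubiquitin ligase gene Hectd2 (2.70 and -0.88), 3110045C21Rik with the collagen receptor gene Ddr2 (1.70 and -0.48), Zbtb11os1 with the zinc finger gene Zbtb11 (0.87 and -0.48), Gm49172 with the scramblase gene Ano6 (0.69 and -0.36) and 2810402E24Rik with Usp54 (0.56 and -0.46).

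The reverse, a member apart and lower with its partner apart and higher, was found in 2 pairs (5.71% of the 35, against 7.12% of all partners apart and higher). Gm15983 was at 0.235 to 0.363 CPM in IgG tumours and 0.0876 to 0.190 CPM in treated ones, opposite the methyltransferase gene Eef2kmt at 9.53 to 11 and 11.9 to 20.3 CPM. Gm26724 was at 0.857 to 1.31 and 0.488 to 0.758 CPM, within the nuclear envelope gene Lemd2 at 60.9 to 63.6 and 64.2 to 68.6 CPM. Both were apart and lower in 13 pairs, among them 1700109K24Rik within the splicing factor gene Rbfox2 (-0.96 and -0.33), Ube4bos1 within Ube4b (-0.95 and -0.26) and Gm13856 with Slc35b4 (-1.34 and -0.33). Both were apart and higher in 9 (8.26% of the 109, against 7.12%). In these, Gm26631 with the cytochrome c oxidase gene Cox5a had log2 fold changes of 0.67 and 0.51, Gm28417 within the phosphatase gene Ptpn18 1.20 and 1.01, and Gm12999 with the ATP synthase inhibitor gene Atpif1 0.49 and 0.38. These 6 pairs were chosen after their values were seen. In 77 members apart and higher and 20 apart and lower, the partner's groups overlapped.

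**Figure D5:**
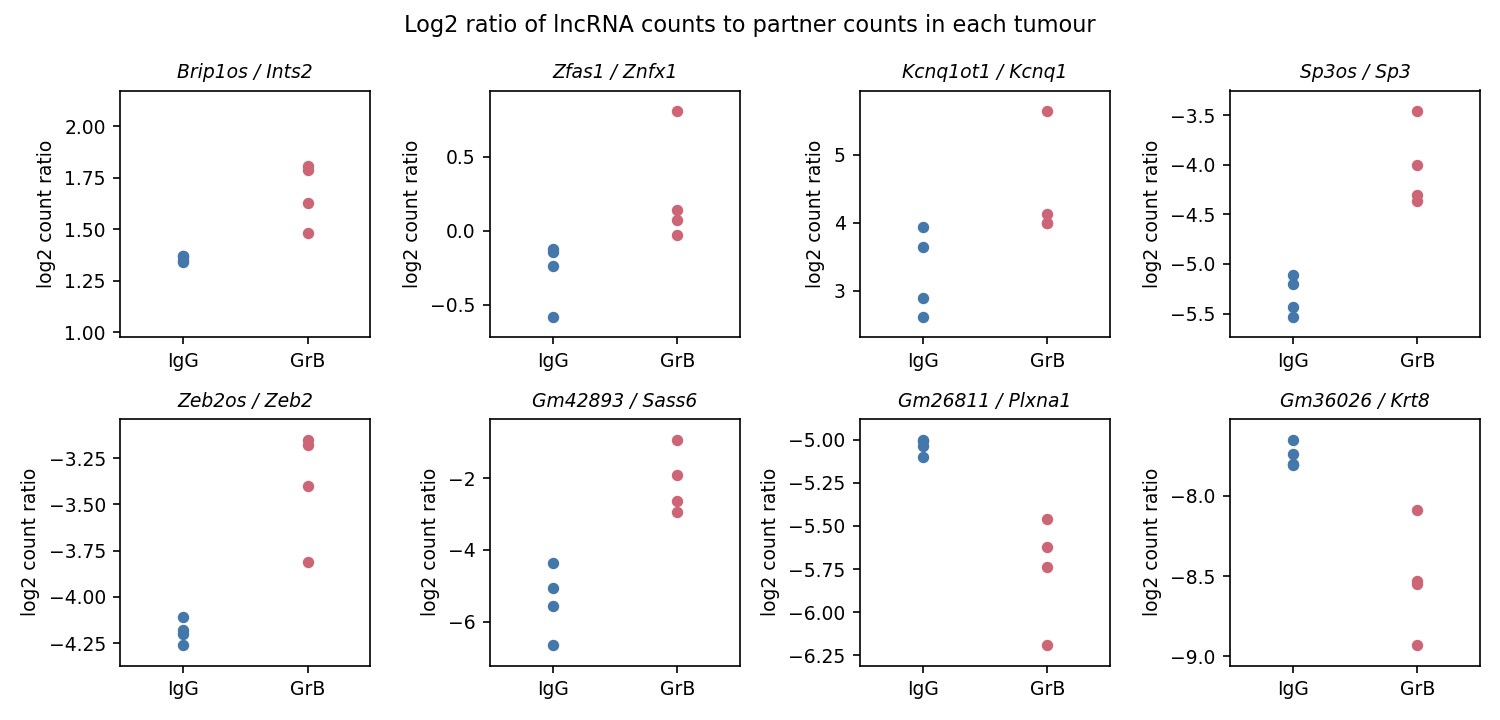
The log2 ratio of lncRNA counts to partner counts (y axes, scales differ) is plotted for 8 pairs, with 1 point per tumour. The ratio is higher in all treated tumours in 6 pairs, including Brip1os to Ints2, where Ints2 was lower by 0.41 on the log2 scale and Brip1os by 0.09, and lower in Gm26811 to Plxna1 and Gm36026 to Krt8.

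On the marker lists of other cells used above, 1 gene is the partner of a member, and partners outside those lists were not checked. A930016O22Rik lies within Ckm, the muscle creatine kinase gene, and was at 0.834, 0.211, 0.276 and 0.521 CPM in IgG 1 to 4 and at 19.1, 1.74, 1.93 and 0.174 CPM in GrB 1 to 4. Ckm was at 14.7, 3.43, 3.59 and 7.79 CPM in IgG 1 to 4 and at 250, 27.0, 31.1 and 2.95 CPM in GrB 1 to 4. Both were highest in GrB 1 and lowest in GrB 4, and the mean of their log2 count ratio differed by -0.01 between the groups. The log2 fold change of A930016O22Rik was 3.63 (SE 1.25) and 1.47 without GrB 1. The use of strand in the counting is not given, so where this or another member overlaps its partner, the reads of the overlap cannot be told apart.

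The naming rule also took the 3 pairs in which the partner's log2 fold change exceeded the member's by the most. A930007I19Rik had a log2 fold change of 0.77 (SE 0.31) where Pdcd1lg2, which encodes the checkpoint ligand PD-L2, had 3.98 (SE 1.28), with 7.60 CPM in GrB 1, 2.05 in GrB 2 and at most 0.242 in the other 6 tumours. A930015D03Rik, enclosing the MHC class I-like gene H2-T24, had -0.69 (SE 0.28) and was lowest in GrB 1 at 6.19 CPM, where H2-T24 was highest at 33.8 CPM. ENSMUSG00000120401 had -0.46 (SE 0.25) where Gpt, an alanine aminotransferase gene, had 0.53 (SE 0.19). In these 3 members and 3 partners the edgeR adjusted p was 0.0768 to 0.21. T cell and MHC class II markers were likewise highest in GrB 1, and their part in these values was not tested.

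Of 26 symbols listed for the machinery that degrades nuclear noncoding RNA, 24 were measured. Of these 3 were higher and 9 lower at an unadjusted p under 0.05, against 17.3% higher and 17.8% lower over all genes, and 0 passed after adjustment. The median log2 fold change was -0.08. Dis3, a catalytic subunit of the exosome, was at 62.1 ± 5.07 CPM in IgG tumours and 42.5 ± 4.88 CPM in treated ones (SD, n = 4 each), a log2 fold change of -0.55 (SE 0.10, edgeR adjusted p = 0.0619). Papolg, a poly(A) polymerase, had -0.49, the nuclear exonuclease Xrn2 -0.33 and the exosome adaptors Zc3h18, Mtrex and Zcchc8 -0.31, -0.25 and -0.19. The 3 higher genes were the exosome core genes Exosc3 and Exosc5, with 0.23 and 0.35, and Pabpn1, with 0.32. Of the 11 genes of Polycomb repressive complex 2, a histone methyltransferase reported to bind several antisense RNAs, 1 was higher (Phf1, 0.45) and 5 were lower at the same level, Suz12 at -0.44 and Jarid2 at -0.31 among them, with a median of -0.18. Relations between these genes and the members were not tested.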

How the data were processed

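Poly(A) RNA was made into libraries with the KAPA Stranded mRNA-Seq kit and random primers, per the labels' protocols, and the submitters' processing notes name bcl2fastq 2.19.1.403, STAR and GRCm39. No source used here gives the gene quantifier, the annotation release or whether counting used strand. The authors deposited estimated counts per gene, of which 45.7% to 47.3% per library were exact whole numbers as written, and a table of CPM made from them with 0.0001 count added. Every row sums to at least 10 counts.

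Estimated counts were rounded, filtered with filterByExpr, scaled by TMM and tested in edgeR 4.0.16 (robust quasi-likelihood, R 4.3.3, Benjamini-Hochberg over 19718 genes) with 4 libraries a group and no covariate. Printed CPM are TMM-scaled. DESeq2 1.42.0 and limma 3.58.1 (voom) were alternatives. The biological coefficient of variation was 27.8%. The geometry code was tested on hand-written cases with known answers. The fit was tested on simulated counts, and the outcome of that test is not given here. Stop coordinates were 1 past the last base on 22 of 22 mitochondrial genes checked, and ends are printed accordingly.

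Members and lists were chosen with earlier results of these data known. The naming rule took the 8 members with the highest mean CPM, the 7 per direction with the smallest p at 1 CPM or more, the 6 highest with os or as names, listed known antisense RNAs, the 3 pairs per direction that differ most from their partner, and genes that make up counts of at most 5. Of 54 members named, 32 came from the ranked and listed parts of this rule, and the others stand behind small counts or were chosen after their values were seen. Promoters came from RefSeq on GRCm38.p6 and were joined to members by symbol only. The partner of 1 named member is not reported here.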

Additional observations from a re-analysis of the deposited data

Results flagged for a closer look

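Of 108 groups of 4 tumours checked (54 named members in 2 treatments), 12 had a highest or lowest value far from the other 3, by Dixon's ratio. Chance flags about 1 in 20 groups where values are normally distributed and groups are not selected. Many members here were named by their values and some groups were all 0, so that rate cannot be applied to them. GrB 1 stood high for A930016O22Rik (19.1 CPM), Gm12744 (34.1), Gm26631 (20.2), Gm37335 (4.26) and Gm43579 (22.3), and low for Ube4bos1 (0.225 CPM). GrB 4 stood high for Gm47766 (0.336 CPM, close to its IgG values) and low for Brip1os (62.9 CPM). IgG 4 stood high for Gm12744 (0.558 CPM), Gm28417 (0.843) and Gm43118 (0.521), and IgG 3 for ENSMUSG00000120814 (0.814 CPM).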

How the results depend on the processing

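No paired analysis was possible because the labels give no replicate numbers, and the numbers used here only name libraries. Members higher and lower at an unadjusted p under 0.05 numbered 169 and 38, and leaving out each library in turn gave 105 to 188 and 25 to 44. Members called ranged from 0 to 76 and all genes called from 0 to 3447, with 22 and 1260 without GrB 1, 76 and 3447 without GrB 4, and 0 without any other library. DESeq2 called 110 members and 4708 genes, and limma-voom called 1 and 1. Members with groups apart ranged from 114 to 179 higher and 34 to 57 lower, and were 169 and 61 without both U libraries. Leaving out libraries makes groups apart easier to reach, and shares of all genes apart are not given for these runs. Shares of all genes at an unadjusted p are given above only for the run without GrB 1. At 1 CPM in 4 libraries 79 were higher, 9 lower and 138 pairs had the same sign, from fewer members. At 400 counts 94 of 377 tested members were higher (24.9%) and 17 lower (4.51%). Of 378 such members 66 and 16 were apart (17.5% and 4.23%), and 194 pairs had the same sign. Members tested at 1 CPM, pairs tested under either filter and shares of all genes under them are not given. These counts of pairs thus cannot be set against the 442 of 845 above. Upper quartile scaling moved the partner median from -0.07 to -0.01 and that of all genes from 0.03 to 0.09. The median of members was 0.17 to 0.28 in every alternative run. The sign of Rab3ip (-0.02) turned to 0.04 with upper quartile scaling, 0.00 unscaled, 0.01 with the 1 CPM filter, and 0.03, 0.01 and 0.04 without IgG 2, GrB 1 and GrB 2 (range -0.09 to 0.04 over single libraries left out). Dnm3os (0.03) turned to -0.07, -0.12 and -0.27 without IgG 2, IgG 3 and GrB 3 (range -0.27 to 0.31), -0.25 without both U libraries and -0.03 with the suffix as covariate. Without both U libraries Metap1d was -0.00, Rab10os -0.01 and Sdccag8 0.01. Metap1d was -0.01 without GrB 3 (range -0.01 to 0.15) and Znfx1 -0.02 without GrB 1 (range -0.02 to 0.39). Of 1798 recomputed values of 107 genes, 1650 kept direction and side of the threshold, 132 passed it and 16 changed sign. The causes were not tested. Depth limits these values, since the median member had 0.482 CPM in libraries of 74 to 82.6 M counts.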
